A study of Mus musculus with 8 samples.

Results

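The proteasome genes of mouse bone marrow mesenchymal stem cells were examined after exposure to ellagic acid (EA), a plant polyphenol. The set held every gene whose symbol begins with Psm, a letter from a to g and a number, apart from Psmb8 and Psmb9, and this took in 49 of the 21899 genes in the table. It covered 7 alpha-ring and 7 beta-ring genes of the core, 3 tissue-specific or inducible core genes, 6 ATPase and 11 non-ATPase genes of the regulatory particle, 7 assembly chaperones and 5 activators or inhibitors. The other 3 were Psmc3ip and Psme3ip1, which are named for partners of a subunit, and Psme2b, a copy of Psme2.

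Cells of the femur, labelled as mesenchymal stem cells, were given 10 µM EA or DMSO, the solvent control, and RNA was taken 48 h later. The poly(A) RNA of both groups was made into 4 libraries each, named Control 1 to 4 and EA 1 to 4. The labels give no strain, sex, age or passage. Nothing in them tells if 4 libraries mean 4 animals, 4 cultures or repeats of 1 culture, so each p-value is set against a spread that may be partly technical.

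The proteasome is the protease that degrades most ubiquitin-tagged proteins of the cytosol and nucleus. Its barrel-shaped core is built of alpha rings that gate the entrance and beta rings that hold the cutting sites, and a regulatory particle recognises the ubiquitin chain, removes it and unfolds the substrate with a ring of ATPases. Dedicated chaperones assemble both parts, interferon-inducible beta subunits and the PA28 activator alter the peptides made, and the transcription factor NRF1 (Nfe2l1) is known to raise subunit genes together when proteasome activity falls short.

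The promoters of the set were read from RefSeq (build GRCm38.p6, 250 bases before to 50 after each gene's start), where 41 of the 49 genes had an entry. Promoter positions are in that build, and the counts were made on GRCm39. Of 45 windows of these genes, 37 had a stretch after the start that matched an annotated transcript in the same direction. The starts of the rest were not checked further. Shares of all genes are over the 27025 genes with an entry, not only those with enough reads here, for which shares were not computed. Sequences are shown for genes whose transcripts are set against each other below and for a few that carry a response element of interest. CCGGAAG, an ETS factor site, was present on either strand in 16 of 41 genes (39.0%), against 9.93% of all genes with an entry. The 60 bases before the start of 4 such genes follow, with the site in capitals, where CTTCCGG is the same site read from the opposite strand. Psmc1 (chr12:100110142-100110201, plus strand) and Psmd12 (chr11:107479468-107479527, plus strand) were higher in EA in the scaling used here and lost or reversed that with library totals, while Psmc2 (chr5:21786687-21786746, plus strand) and Psmd2 (chr16:20651592-20651651, plus strand) were lower.
Psmc1: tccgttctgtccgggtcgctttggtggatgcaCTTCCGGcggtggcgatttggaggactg
Psmd12: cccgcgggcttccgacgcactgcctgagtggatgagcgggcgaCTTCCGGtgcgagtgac
Psmc2: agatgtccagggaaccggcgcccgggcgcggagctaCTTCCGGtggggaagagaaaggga
Psmd2: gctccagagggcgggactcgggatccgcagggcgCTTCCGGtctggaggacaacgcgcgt

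The site was found in 4 of 6 matched genes that were called higher, 6 of 13 called lower and 6 of 21 not called, so it was present on both sides. TGACNNNGC, the core of the antioxidant response element that NRF1 and NRF2 bind with small MAF partners, was in 6 of 41 genes (14.6%), against 13.99% of all genes. These were Psmb5, Psmb6, Psmc6, Psmd9, Psmd12 and Psme4. In Psme4 it lay close to the start on the opposite strand, and that stretch is not shown. It also lay close to the start in Psmb5 (chr14:54617996-54618055, minus strand), Psmb6 (chr11:70525297-70525356, plus strand) and Psmd9 (chr5:123228130-123228189, plus strand). These are shown as the 60 bases before the start with the element in capitals.
Psmb5: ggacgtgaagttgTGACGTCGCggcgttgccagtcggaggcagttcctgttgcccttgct
Psmb6: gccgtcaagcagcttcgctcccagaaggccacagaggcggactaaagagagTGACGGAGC
Psmd9: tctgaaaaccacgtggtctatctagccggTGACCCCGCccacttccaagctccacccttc

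The interferon-stimulated type of element (GAAA, any 2 bases, GAAA) was in 5 of 41 genes (12.2%), against 3.99% of all genes. These were Psmb3, Psmd4, Psmd9, Psme1 and Psmg4. By call, 0 of 6 matched genes called higher held it, 2 of 13 called lower and 3 of 21 not called. Psme1 was among the 5, and there the element began at base 10 after the start, on the opposite strand (chr14:55578493-55578522, plus strand, 30 bases with the element in capitals).
Psme1: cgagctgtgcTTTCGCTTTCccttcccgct
TTCNNNGAA, the gamma-activated type, was in 2 of 41 genes (4.88%, against 9.55%), and CCAAT was in 15 (36.6%, against 41.1%). Both strands were searched, and a gene counted if any of its windows held the letters. A match to the interferon type can share bases with a TTCNNNGAA match, but no member held both. These are matches of letters and do not show binding.

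Totals ran from 14112519 to 17390200 reads per library. Of 11777 genes with enough reads to be tested, 3893 (33.1%) were higher and 4027 (34.2%) lower in EA, 67.2% in all (edgeR quasi-likelihood test, Benjamini-Hochberg adjusted p under 0.05, scaled by trimmed mean of M-values, TMM). The Control libraries had TMM factors of 1.13 to 1.14 and the EA libraries 0.878 to 0.885, and scaling by library totals alone gave 16.5% higher and 61.1% lower and shifted the median change over all genes by −0.36 on the log2 scale. Upper-quartile factors gave 24.0% and 45.3% and shifted it by −0.16. The stromal label was checked against 14 marker genes, whose summed level was 15587 to 17651 CPM (reads of a gene per 1e6 reads of the library, after its TMM factor) in Control and 21755 to 22735 in EA, of which Col1a1 and Col1a2 made up most. With library totals the sums were 17572 to 19931 and 19237 to 20039 CPM. Of the 13 stromal markers tested 7 were higher and 3 lower with TMM. Pdgfra went from 138 ± 25.3 to 632 ± 15.03 CPM (SD, n = 4) and Pdgfrb from 190.1 ± 11.3 to 520.3 ± 19.6. With TMM Ly6a, Vcam1 and Prrx1 fell by 1.49, 0.57 and 0.59 on the log2 scale. By library totals Pdgfra, Pdgfrb and Itgb1 stayed higher, while Ly6a, Vcam1, Prrx1, Cd44 and Cxcl12 were lower. Col1a1, Col1a2, Eng and Nt5e were then no longer called. Lepr and Thy1 were near 0, and Eng and Nt5e were low, at 2.16 and 4.39 CPM in Control and 3.53 and 6.27 in EA. Lymphocyte markers summed to 1.07 CPM or less with Cd3e at 0, and endothelial markers to 4.19 or less. Erythroid and megakaryocyte markers summed to 9.95 to 13.3 CPM in Control and 5.63 to 8.78 in EA. In that list Itga2b went from 9.27 ± 0.998 to 5.53 ± 0.724 CPM and was called lower (log2 fold change −0.74, edgeR adjusted p = 9.59e-05). The part of the stromal markers in the results was not tested.

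With TMM scaling the proteasome set moved little and in both directions. Of 47 tested members 9 (19.1%) were higher and 13 (27.7%) lower in EA, below the 33.1% and 34.2% of all genes, and 25 were not called. The median log2 fold change was −0.02, equal to that of all tested genes. None of the 47 reached a log2 change of 1 in size, which 17.7% of all tested genes did, and 42 of 47 (89.4%) lay within 0.4 of no change, against 50.7% of all. The EA libraries were all above the Control libraries for 9 members (19.1%, against 29.9% of all genes) and all below for 16 (34.0%, against 30.7%). The 2 untested members were Psma8, the testis form of an alpha subunit, with 1 read in all 8 libraries together, and Psmb11, the thymus beta subunit, with 2 reads, both in Control 1.

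**Figure D1:**
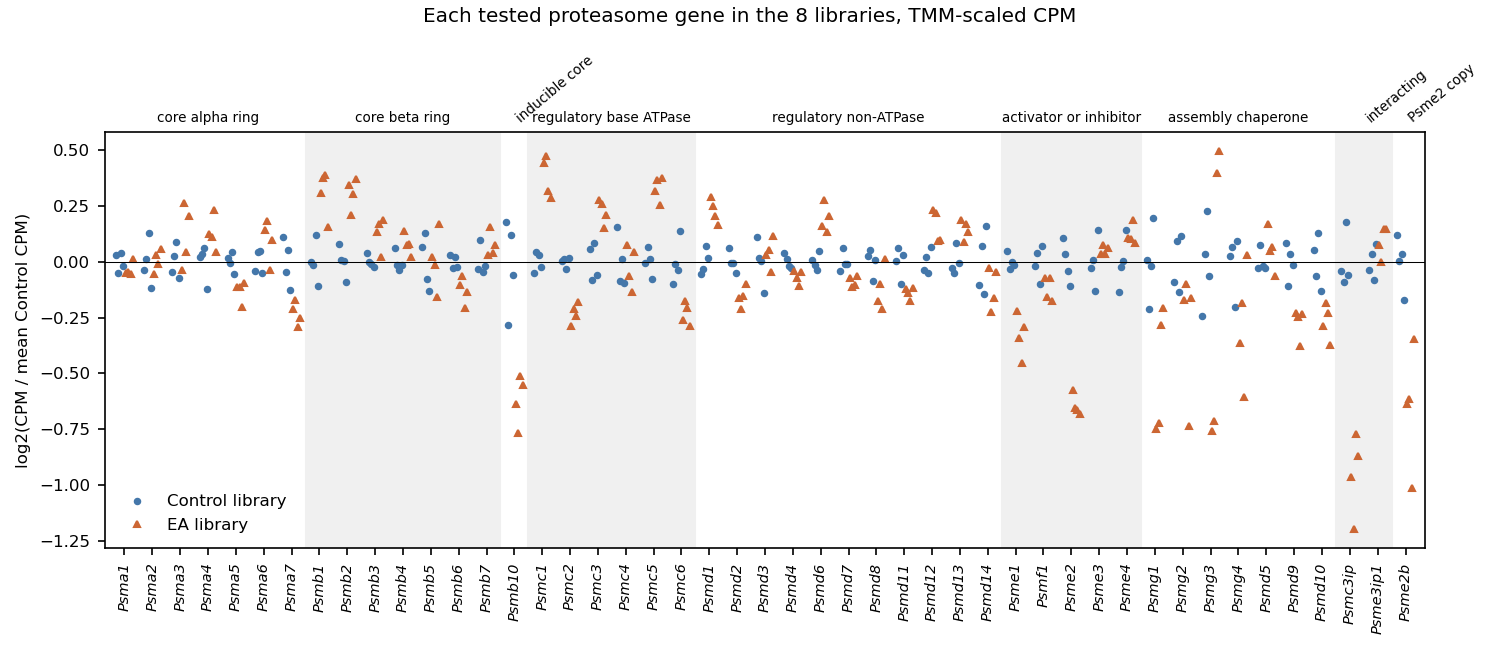
Level of each tested proteasome gene in each of the 8 libraries, as log2 of TMM-scaled CPM over the Control mean (y axis), ordered by role (x axis); circles are Control and triangles EA libraries. The standard core and regulatory genes lie within about 0.5 of the Control mean, and Psmb10, Psme2, Psmc3ip and Psme2b lie lower in every EA library; with library totals every fold change except that of Psmc1 is below 0.

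The direction of the rising members rests on the scaling. With library totals 0 members were higher and 42 of 47 (89.4%) lower, where 61.1% of all genes were lower. With upper-quartile factors 4 were higher (Psmb1, Psmb2, Psmc1 and Psmc5) and 24 lower. All 13 genes called lower with TMM were also called lower with upper-quartile factors and with library totals. In plain shares, the set took 0.468 ± 0.0048% of reads in Control (SD, n = 4, 0.461 to 0.471%) and 0.365 ± 0.0048% in EA (0.358 to 0.369%). Comparisons between members within a library do not depend on the factors and are given where they apply. Values below are TMM-scaled CPM unless FPKM is named, and in bulk RNA fewer cells of a type and less RNA per cell cannot be told apart.

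The 31 standard genes of the core and the regulatory particle divided into 9 higher, 5 lower and 17 not called, with a median log2 fold change of 0.04 and a range of −0.23 to 0.38. All 9 risers of the set were among them, and with library totals none of the 9 was called higher. The other 16 tested members had 0 higher, 8 lower and 8 not called, with a median of −0.27. Over all tested genes 33.1% were higher and 34.2% lower. The groups of genes were also compared per gene length, in the authors' FPKM. Regulatory genes (6 ATPase and 11 non-ATPase) summed to 1.11 to 1.17 times the 14 core genes in Control and to 1.11 to 1.13 times in EA, so these ranges overlapped.

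**Figure D2:**
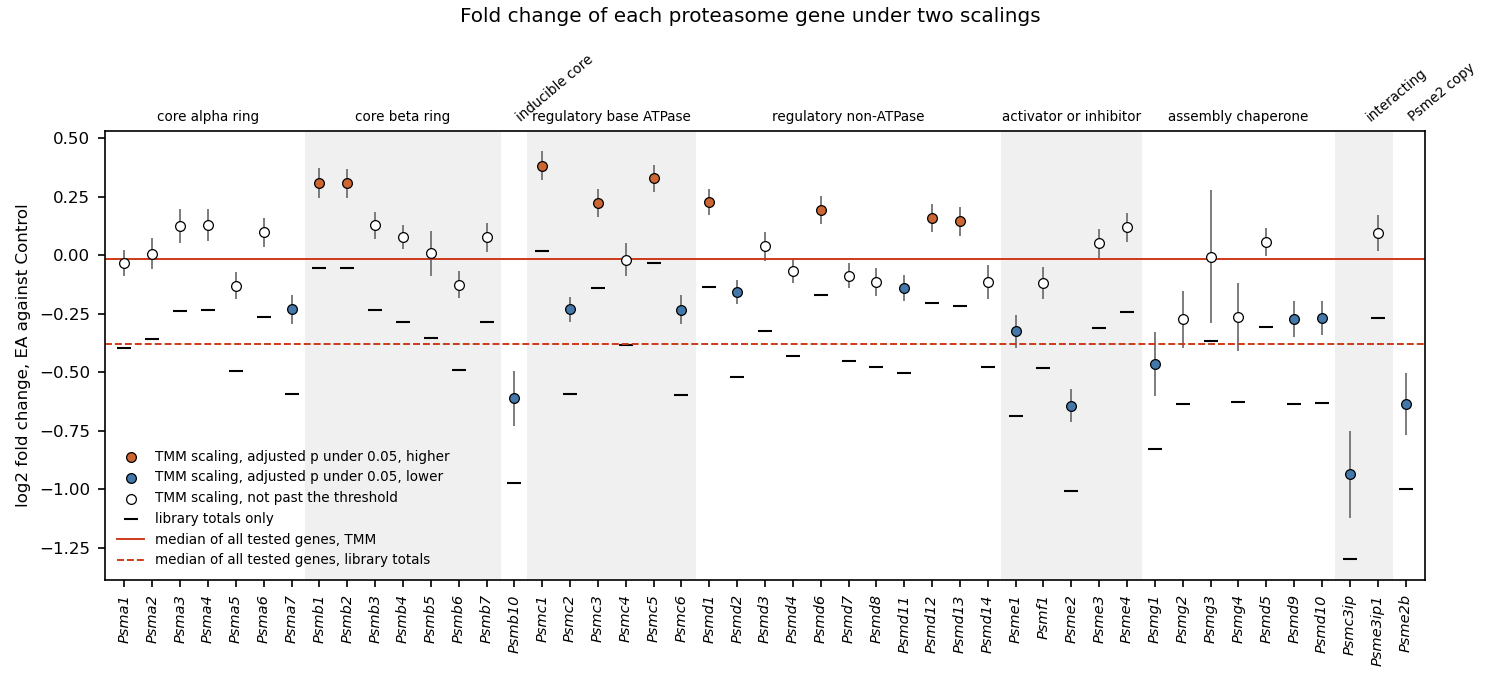
Log2 fold change of EA against Control for each tested proteasome gene (y axis), by role (x axis). Circles with standard errors are TMM-scaled edgeR values (orange called higher, blue lower, white not called), dashes are values with library totals, and red lines are the medians of all tested genes. TMM values run from −0.94 for Psmc3ip to 0.38 for Psmc1; with library totals Psmc1, at 0.02, is the sole value above 0.

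Levels per gene length among tested members ran from Psmb4, a beta-ring subunit, at 119 ± 3.28 FPKM in Control to Psmg3, an assembly chaperone, at 0.851 ± 0.12 FPKM (mean ± SD, n = 4). Next to Psmb4 came Psma6 at 92.9 ± 3.91 FPKM and the ubiquitin receptor gene Psmd4 at 92.4 ± 1.93 FPKM, a gap smaller than their spread. The catalytic genes differed in level, with Psmb6 at 57.9 ± 1.33, Psmb5 at 27.0 ± 2.26 and Psmb7 at 22.6 ± 1.06 FPKM for subunits that the core holds in equal number. The gene lengths behind these values ran from 899 bases for Psmb5 to 4595 for Psmb1 among core genes, and levels between genes carry that length.

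**Figure D3:**
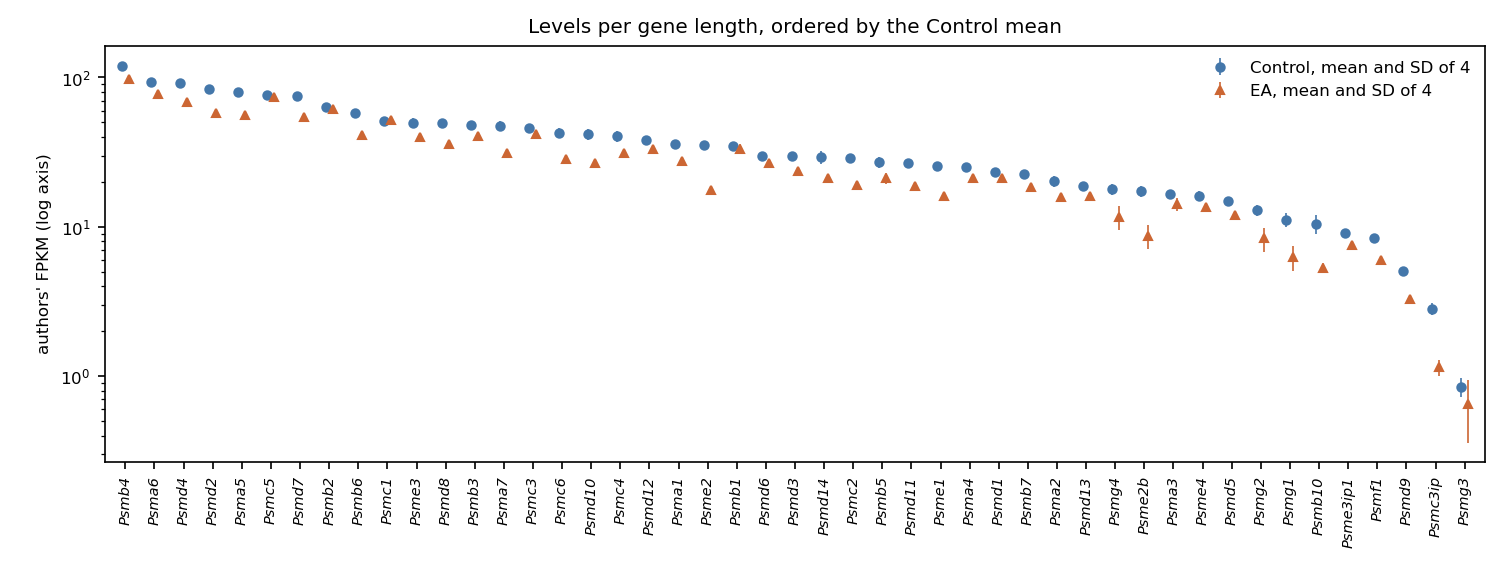
Level of each tested proteasome gene in FPKM on a log axis, ordered by the Control mean, with the mean and SD of 4 libraries in each group. Psmb4 stands at 119 FPKM in Control and Psmg3 at 0.851; FPKM carries scaling by library totals, so most EA points lie below their Control points.

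Among the 7 alpha-ring genes 1 was lower, none higher and 6 not called, with a median log2 fold change of 0.01. The shares of all tested genes were 34.2% lower and 33.1% higher. Psma7 was at 138, 124, 133 and 117 CPM in Control 1 to 4 and at 111, 114, 105 and 108 in EA 1 to 4. Every EA library lay below every Control library, and the gene fell by 0.23 on the log2 scale (SE 0.06, edgeR adjusted p = 0.00249). Psma5 was also below Control in every EA library, at 80.4 to 86.5 against 89.0 to 95.3 CPM, but was not called (log2 fold change −0.13, adjusted p = 0.0528 by edgeR). For Psma1, Psma2, Psma3, Psma4 and Psma6 the groups overlapped and the log2 fold changes were −0.03 to 0.13.

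The beta-ring genes had 2 higher, 0 lower and 5 not called, against 33.1% higher and 34.2% lower of all tested genes. Psmb2, a subunit without a cutting site, was at 71.2, 67.8, 67.6 and 63.4 CPM in Control and at 85.7, 77.96, 83.1 and 87.2 in EA. The groups did not overlap with TMM scaling, and the log2 fold change was 0.31 (SE 0.06, edgeR adjusted p = 0.000217), while with library totals it was −0.06 and not called (adjusted p = 0.417). Psmb1, also without a cutting site, had 130 to 152 CPM in Control and 156 to 183 in EA, with a log2 fold change of 0.31 (adjusted p = 0.000262 by edgeR) that became −0.05 with library totals. Psmb4, the most abundant member per gene length, was at 214, 202, 200 and 203 CPM in Control and 225, 215, 216 and 207 in EA, which overlapped and was not called (log2 fold change 0.08, edgeR adjusted p = 0.198).

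The 3 genes that carry the cutting sites of the standard core were not called. Psmb5, the chymotrypsin-like subunit and the main target of proteasome inhibitor drugs, stood at 22.4, 23.4, 20.3 and 19.6 CPM in Control and 21.7, 21.2, 19.2 and 24.1 in EA (log2 fold change 0.01, edgeR adjusted p = 0.949). Psmb6, the caspase-like subunit, stood at 97.7, 93.9, 97.0 and 94.0 CPM in Control and 88.9, 91.4, 82.8 and 87.2 in EA, all below Control (log2 fold change −0.13, edgeR adjusted p = 0.0566). Psmb7, the trypsin-like subunit, stood at 66.5, 72.9, 66.0 and 67.1 CPM in Control and 69.5, 75.7, 70.04 and 71.8 in EA (log2 fold change 0.08, edgeR adjusted p = 0.289). The groups overlapped for Psmb5 and Psmb7. With library totals Psmb5, Psmb6 and Psmb7 had values of −0.36, −0.49 and −0.29 and were called lower.

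The inducible core was lower. Psmb10, which takes the place of Psmb7 in the immunoproteasome, was at 17.8, 12.9, 17.1 and 15.1 CPM in Control and at 10.1, 9.28, 11.1 and 10.7 in EA. The highest EA library was below the lowest Control library, a log2 fold change of −0.61 with an SE of 0.12 (edgeR adjusted p = 0.000126). Of the inducible genes outside the set, Psmb8, the counterpart of Psmb5, went from 6.95 ± 0.905 CPM in Control to 3.31 ± 0.631 in EA (log2 fold change −1.08, edgeR adjusted p = 1.51e-05). Psmb9, the counterpart of Psmb6, was at 6.76 ± 0.709 and 5.18 ± 0.615 CPM (log2 fold change −0.39, edgeR adjusted p = 0.0264), and that call was lost without Control 1, Control 4, EA 1 or EA 3 (adjusted p = 0.0508 to 0.0956).

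Within a library the exchange partners can be set against each other. Psmb10 stood at 53.8, 35.6, 52.1 and 45.3% of Psmb7 in Control 1 to 4 and at 29.3, 24.6, 31.7 and 30.0% in EA 1 to 4, per gene length. The size of these percentages depends on the gene lengths used, and the reads in Control 1 were 311 for Psmb10 and 1159 for Psmb7. The groups did not overlap, and the mean log2 ratio differed by −0.68 (exact two-sided permutation p = 0.0286, 0.0286 adjusted over the 2 ratios tested; no smaller p exists with 70 assignments). Psmb8 was 8.66 ± 1.12% of Psmb5 in Control and 4.06 ± 0.511% in EA, and Psmb9 was 3.61 ± 0.347% of Psmb6 and 3.02 ± 0.253%. For the Psmb9 share the groups overlapped, and neither of these shares was tested.

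The genes of the PA28 activators also differed by form. Psme2, which with Psme1 forms the interferon-inducible activator ring, was at 59.3, 56.4, 53.5 and 51.1 CPM in Control and at 37.0, 35.04, 34.8 and 34.4 in EA. The groups were well apart, and Psme2 was 1.56-fold lower (log2 fold change −0.64, SE 0.07, edgeR adjusted p = 7.79e-08). Psme1 was at 51.8, 49.0, 50.1 and 49.7 CPM in Control and 43.1, 39.6, 36.6 and 40.9 in EA, a log2 fold change of −0.33 (edgeR adjusted p = 0.000319). Psme3, which forms the nuclear PA28 ring, was at 118 to 143 CPM in Control and 133 to 136 in EA, overlapping and not called (log2 fold change 0.05).

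The sum of Psme1 and Psme2 was 132, 122, 132 and 106% of Psme3 in Control and 89.9, 81.7, 80.6 and 82.7% in EA, per gene length. In percent no EA library reached the lowest Control library, and the mean log2 ratio differed by −0.55 (exact two-sided permutation p = 0.0286, 0.0286 adjusted over the 2 ratios). As Psme3 was not called, this ratio largely repeats the falls of Psme1 and Psme2. Psme4, the activator PA200, and Psmf1, the inhibitor PI31, were not called, with log2 fold changes of 0.12 and −0.12. Psme2b was at 13.8, 12.8, 13.1 and 11.3 CPM in Control and at 8.20, 8.32, 6.31 and 10.03 in EA. The means were 12.7 ± 1.06 and 8.22 ± 1.52 CPM (log2 fold change −0.63, edgeR adjusted p = 0.000298). Psme2b is a copy of Psme2, and its reads cannot be told from those of its source with certainty, so the separate values of both carry that doubt. Immunoproteasome genes are known to be high in immune cells, and macrophage and myeloid markers summed over 10 genes to 59.7 to 74.8 CPM in Control and 59.4 to 63.9 in EA (67.3 to 84.5 and 52.1 to 56.5 with library totals). Most of that sum was Lyz2 and Cd14, which moved apart. From Control to EA Cd14 went from 34.02 ± 3.202 to 9.65 ± 0.739 CPM (SD, n = 4, log2 fold change −1.82, edgeR adjusted p = 1.66e-12), and Lyz2 from 34.3 ± 4.14 to 51.01 ± 1.29 CPM (log2 fold change 0.57, edgeR adjusted p = 3.28e-06). Cd68 was not called, and 7 had too few reads to be tested, among them the defining markers Ptprc, with 16 reads in the 4 Control libraries and 17 in EA, and Adgre1, with 5 and 2. The part of these markers in the falls was not tested.

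**Figure D4:**
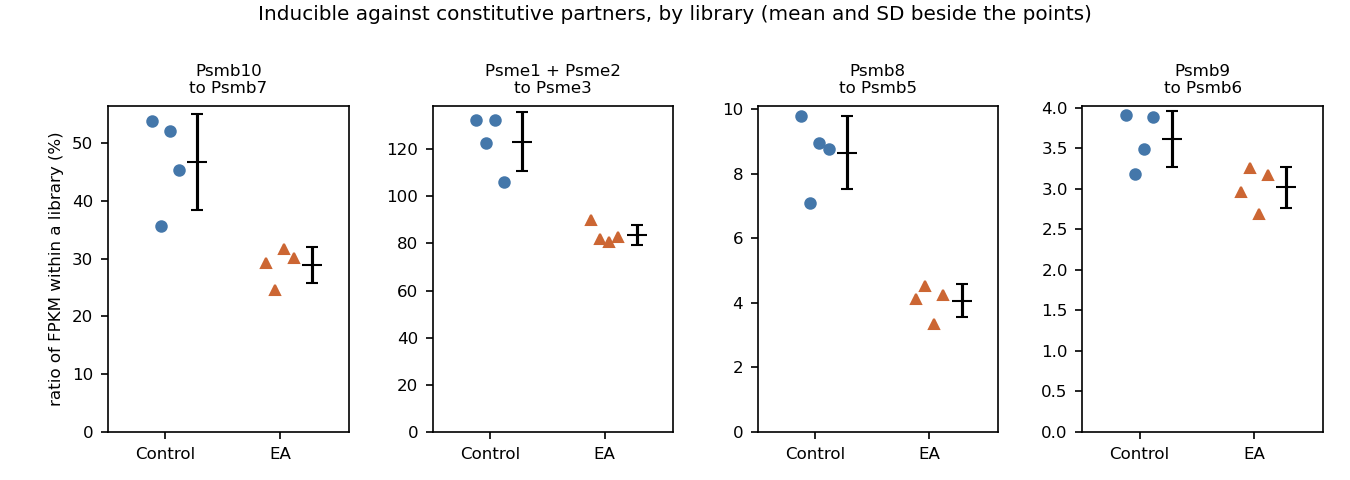
Ratios of inducible to constitutive partners within each library, in percent of FPKM (y axis), for 4 Control and 4 EA libraries, with the mean and SD beside the points; Psmb8 and Psmb9 are outside the set. In the first and second panels the EA points lie at 24.6 to 31.7% and 80.6 to 89.9%, below the Control points at 35.6 to 53.8% and 106 to 132%.

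Of the 6 genes of the ATPase ring 3 were higher, 2 lower and 1 not called, against 33.1% higher and 34.2% lower of all tested genes. Psmc1 was at 83.9, 89.3, 88.6 and 85.4 CPM in Control and at 118, 120, 108 and 106 in EA. All EA libraries lay above, and the log2 fold change was 0.38 (SE 0.06, edgeR adjusted p = 1.35e-05) with TMM, 0.22 with upper-quartile factors and 0.02, not called, with library totals. Psmc2 was at 128, 129, 125 and 129 CPM in Control and at 105, 111, 108 and 113 in EA, a log2 fold change of −0.23 (SE 0.05, edgeR adjusted p = 0.000878). Psmc5 and Psmc3 had log2 fold changes of 0.33 and 0.22 with TMM and −0.04 and −0.14 with library totals, Psmc6 fell by 0.23, and Psmc4 was not called at −0.02.

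These ATPases are known to assemble as pairs, and the pairs were not even. Psmc1 exceeded its partner Psmc2 by 0.61 in log2 fold change. Psmc3 exceeded Psmc6 by 0.46, and Psmc5 exceeded Psmc4 by 0.35. The gaps were the same to 2 decimals under TMM, upper-quartile and library-total scaling except that Psmc3 minus Psmc6 was 0.45 with upper-quartile factors. They were not tested themselves, and the interquartile range of log2 fold changes over all tested genes was 0.79 with TMM.

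Of the non-ATPase genes 4 were higher, 2 lower and 5 not called, against 33.1% higher and 34.2% lower of all tested genes. Psmd1, a large scaffold at the base, was at 144, 146, 157 and 151 CPM in Control and 183, 178, 172 and 167 in EA (log2 fold change 0.23, SE 0.06, edgeR adjusted p = 0.0012), and was lower with library totals, at −0.14. Psmd2, the other large scaffold, was at 309, 295, 296 and 286 CPM in Control and 265, 256, 267 and 277 in EA (log2 fold change −0.16, edgeR adjusted p = 0.0116). Neither pair of groups overlapped, so the scaffold genes differed in direction with TMM but not with library totals. Without EA 2 the call for Psmd2 was lost (adjusted p = 0.0512).

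Among the lid genes the called changes were small. Psmd6, Psmd12 and Psmd13 had log2 fold changes of 0.19, 0.16 and 0.15 with TMM, and −0.17, −0.20 and −0.22 with library totals. Psmd11, whose level is known to limit proteasome assembly in human embryonic stem cells, fell by 0.14 (edgeR adjusted p = 0.0331). The calls of Psmd11 and Psmd13 were each lost on leaving out any of 5 libraries, and that of Psmd12 on leaving out any of 3. Psmd4, the ubiquitin receptor, and Psmd14, the deubiquitinase that removes the chain, were not called, with log2 fold changes of −0.07 and −0.12, and Psmd3, Psmd7 and Psmd8 were not called either.

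Assembly chaperones had 3 lower, 0 higher and 4 not called, with a median of −0.27. Of all tested genes 34.2% were lower and 33.1% higher. Psmd10 (gankyrin), a chaperone of the ATPase ring, was at 55.9, 51.6, 58.8 and 49.2 CPM in Control and 44.1, 47.4, 45.8 and 41.6 in EA, all below (log2 fold change −0.27, SE 0.07, edgeR adjusted p = 0.00302). Psmd9, which acts on the same ring, fell by 0.27 (edgeR adjusted p = 0.0043), and Psmd5, the third chaperone of that ring, was not called at 0.06. Psmg1, a chaperone of the alpha ring, was at 13.3, 11.4, 13.1 and 15.1 CPM in Control and 7.88, 8.02, 10.9 and 11.5 in EA, overlapping but called lower (log2 fold change −0.47, edgeR adjusted p = 0.00483).

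Its partner Psmg2 was near the threshold (log2 fold change −0.27, edgeR adjusted p = 0.0509), and Psmg4 was not called at −0.26. Psmg3, the least abundant tested member, was at 1.84, 2.23, 2.54 and 2.08 CPM in Control and 1.29, 1.33, 2.86 and 3.06 in EA. The EA libraries spanned the whole Control range, and the log2 fold change was −0.01 with an SE of 0.28. Psmc3ip, a meiotic recombination factor named for binding Psmc3, was at 4.42, 4.27, 5.14 and 4.37 CPM in Control and 2.33, 1.99, 2.67 and 2.49 in EA. Its fall of 0.94 on the log2 scale (SE 0.19, edgeR adjusted p = 0.000164) had the largest size in the set, and it is not a part of the proteasome. Psme3ip1 was not called at 0.09.

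Genes of the pathway outside the set were described from lists of its factors, and Paaf1 was the listed gene without a row to analyse here. Of 4 subunits or assembly factors without a Psm number 2 were higher and 0 lower, against 33.1% and 34.2% of all tested genes. Sem1, a small lid subunit, had a log2 fold change of 0.57 (edgeR adjusted p = 8.37e-07) with TMM and 0.21, still called, with library totals. Pomp, the maturation factor of the core, had 0.26 (adjusted p = 0.00666) and reversed to −0.11, not called, with library totals.

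Of 12 enzymes and shuttles that work at the proteasome 5 were higher and 5 lower, where 33.1% and 34.2% of all tested genes were. Zfand5, a ubiquitin-binding activator of the proteasome, had a log2 fold change of 1.03 (139, 138, 131 and 156 CPM in Control, 282, 303, 285 and 278 in EA, edgeR adjusted p = 4.51e-12), and Txnl1, a thioredoxin bound to the regulatory particle, had 0.79. Both stayed higher with library totals, at 0.66 and 0.42. Akirin2, which carries proteasomes into the nucleus, fell by 0.61 and the shuttle gene Ubqln4 by 0.48. Of 10 genes of ubiquitin and its extraction 4 were higher and 3 lower, against the same shares of all tested genes. Vcp, the segregase that pulls out substrates, had a log2 fold change of 0.40 with TMM but 0.04, not called, with library totals. Rps27a, which encodes ubiquitin fused to a ribosomal protein, had 0.18 with TMM (edgeR adjusted p = 0.00322) but was called lower with library totals, at −0.18 (adjusted p = 0.00209). Faf1 and the activating enzyme gene Uba1 fell by 0.35 and 0.20.

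Genes of NRF1 control had 5 of 9 higher and 2 lower, where 33.1% and 34.2% of all tested genes were. Nfe2l1 itself was at 1666, 1701, 1604 and 1661 CPM in Control and 918, 888, 937 and 1017 in EA, 1.76-fold lower (edgeR adjusted p = 2.78e-11). Its small MAF partner genes Maff and Mafk were higher by 2.08 and 1.98 on the log2 scale, and stayed higher with library totals, at 1.71 and 1.62. Btrc, a ubiquitin ligase component for NRF1, fell by 0.16 (edgeR adjusted p = 0.0293, and 0.0638 to 0.0857 without Control 1, Control 3, EA 1, EA 3 or EA 4). Ddi2, the protease that activates NRF1, and Fbxw7, which marks it for removal, rose by 1.34 and 1.99 with TMM and 0.98 and 1.63 with library totals, and were named after their values were seen. With TMM the 9 genes ran from −0.82 to 2.08 with 2 not called, and the 31 standard subunit genes lay between −0.23 and 0.38. A link between them was not tested, and NRF1 activity was not measured.

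**Figure D5:**
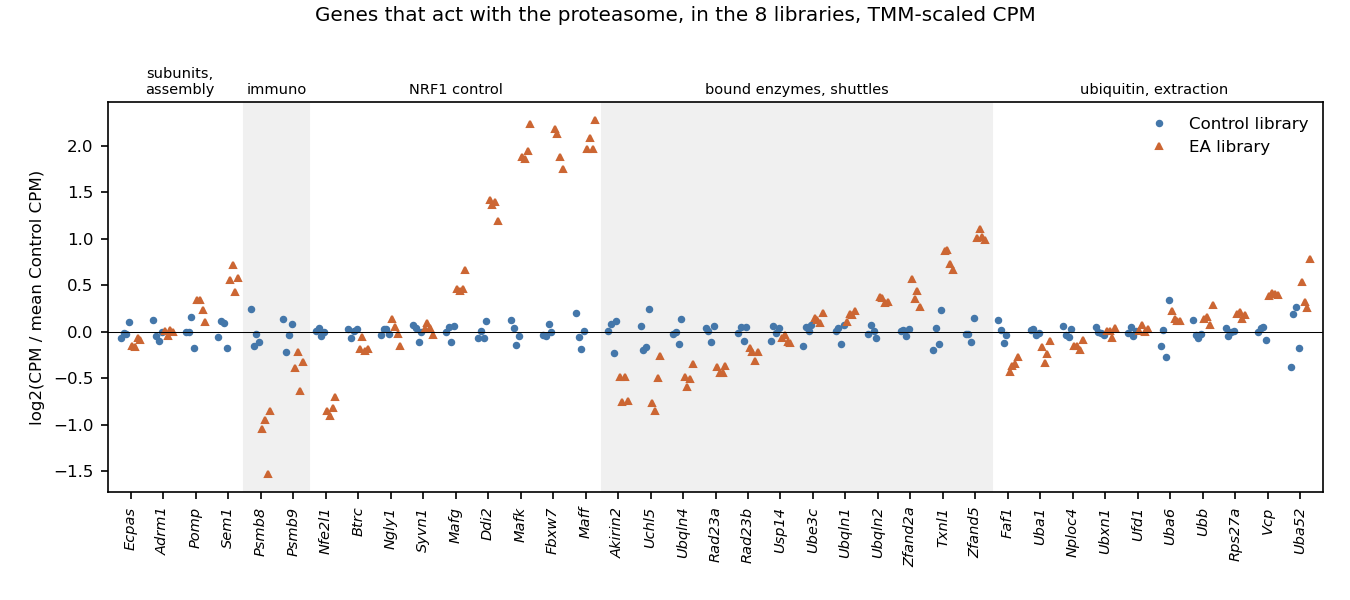
Level of tested genes that act with the proteasome, as log2 of TMM-scaled CPM over the Control mean (y axis), by list (x axis); circles are Control and triangles EA libraries. The EA libraries of Maff, Mafk and Fbxw7 are far above Control and those of Nfe2l1 below; of genes called higher, Pomp, Ubqln1, Ubqln2, Ubb and Rps27a turn negative with library totals.

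Strand was not marked by the library protocol as described, and 13 members overlap another gene of the table, so part of their reads may belong to a neighbour. Among these are Psme1 with Emc9, Psmc3 with Slc39a13, Psmd1 with Htr2b, Psmb7 with Nek6, Psmc3ip with Mlx and Psmd9 with Hpd. Psmb10, Psme2, Psmc1 and Psmc2 do not overlap another gene in the table. In build GRCm39 Psmb10 lies at chr8:106662367-106665076 on the minus strand, Psme2 at chr14:55824898-55828570 on the minus strand, Psmc1 at chr12:100076413-100089664 and Psmc2 at chr5:21990281-22008785, both on the plus strand.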

How the data were processed

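Poly(A) RNA in 4 Control and 4 EA libraries was sequenced. The authors deposited read counts per gene, and FPKM, which equal the count over gene length and library total (recomputed here to a largest relative deviation of 3.54e-14). The submitters' processing notes name cutadapt 1.15, HISAT2 2.0.5 and build GRCm39. The sources used here do not name the counter, strand setting or annotation.

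The tests were run in edgeR 4.0.16 under R 4.3.3 (TMM factors, filterByExpr by group, robust quasi-likelihood F test, no covariates), with Benjamini-Hochberg adjustment over 11777 genes and a threshold of 0.05. Totals were 14112519 to 17390200 reads, and the biological coefficient of variation was 7.78%. The SE is the size of the log2 fold change over the square root of F. The 12 pairs of libraries within groups differed beyond sampling noise (chi-square per degree of freedom of 2.79 or more). Two-sided exact permutation tests over 70 assignments were used for the 2 ratios.

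Values in all libraries are given for the called member with the smallest p per role and direction, the most and least abundant tested members by FPKM and the catalytic genes, and for others as marked or for context. In each list of pathway genes up to 2 higher and 2 lower by p are named, and a listed gene is not reported here. Members and lists were chosen with earlier results of these data known. Alternatives were other scalings, filters, DESeq2 1.42.0, limma 3.58.1 and FPKM with pseudocounts of 1 and 0.1, a threshold of 0.01, a replicate block and each library left out. The steps were tested on simulated data in which a small part of the genes changed, in both directions. That setting differs from these data, so it could not test the choice of scaling. Figures used matplotlib 3.10.9.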

Additional observations from a re-analysis of the deposited data

Results flagged for a closer look

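Among 98 groups of 4 libraries examined for a single library far from the other 3, 7 stood out, where chance flags about 1 in 20 groups. In Control 2, Psmd5 was at 99.93 CPM against 93.1 to 93.7 in the other libraries, and Psmb7 was at 72.85 against 66.0 to 67.1. In Control 3, Psmc3ip was at 5.14 CPM against 4.27 to 4.42. In EA 3, Psmd9 was at 24.97 CPM against 27.4 to 27.7, Psmg2 at 11.97 against 17.7 to 18.6 and Psma5 at 80.4 against 85.6 to 86.5. In EA 4, Psma1 was at 94.8 CPM against 90.5 to 90.9.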

How the results depend on the processing

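Scaling was the choice that mattered most. Members higher in EA numbered 9 with TMM, 4 with upper-quartile factors and 0 with library totals, log2(FPKM + 1) or log2(FPKM + 0.1), and members lower numbered 13, 24, 42, 42 and 42. Over all tested genes 16.5%, 16.3% and 16.3% were higher and 61.1%, 60.8% and 60.9% lower with library totals, FPKM + 1 and FPKM + 0.1. Without factors, as in the latter settings by construction, the log2 fold change turned negative for Pomp (−0.11, −0.096 and −0.10), Psma2 (−0.36, −0.34 and −0.35), Psma3 (−0.24, −0.23 and −0.24), Psma4 (−0.23, −0.22 and −0.23), Psma6 (−0.27, −0.26 and −0.27), Psmb1 (−0.054, −0.053 and −0.054), Psmb2 (−0.056, −0.055 and −0.056) and Psmb3 (−0.24, −0.23 and −0.24). It also turned negative for Psmb4 (−0.29, −0.28 and −0.28), Psmb5 (−0.36, −0.34 and −0.35), Psmb7 (−0.29, −0.27 and −0.29), Psmc3 (−0.14, −0.14 and −0.14), Psmc5 (−0.035, −0.034 and −0.035), Psmd1 (−0.14, −0.13 and −0.14), Psmd12 (−0.20, −0.20 and −0.20) and Psmd13 (−0.22, −0.21 and −0.22). The same held for Psmd3 (−0.32, −0.31 and −0.32), Psmd5 (−0.31, −0.29 and −0.31), Psmd6 (−0.17, −0.16 and −0.17), Psme3 (−0.31, −0.30 and −0.31), Psme3ip1 (−0.27, −0.24 and −0.27), Psme4 (−0.24, −0.23 and −0.24) and Rps27a (−0.18, −0.18 and −0.18), with values in each case from library totals, FPKM + 1 and FPKM + 0.1. With upper-quartile factors Psmd13, called higher with TMM, was at −0.012, and 13 members that were positive and not called with TMM were at −0.15 to −0.029. DESeq2 gave 10 higher and 13 lower members, limma voom 9 and 16, no filter 8 and 14, CPM above 1 in all libraries 8 and 16, and a threshold of 0.01 gave 7 and 11. Leaving out 1 library gave 7 to 10 higher and 12 to 16 lower, with calls lost for Psmd2, Psmd11, Psmd12 and Psmd13 and gained for Psma5, Psmb3, Psmb6, Psmd8, Psme4, Psmg2 and Psmg4. The log2 ratio of Psmb10 to Psmb7 differed by −0.81 to −0.61 and that of Psme1 plus Psme2 to Psme3 by −0.62 to −0.52 without 1 library, each at the smallest exact permutation p such a design allows (0.0571). The alternatives for genes outside the set were added after seeing the data.

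Same-numbered libraries did not deviate together (correlations −0.02 to 0.03), so the numbers are not taken as pairs. With a replicate block 8 members were higher and 14 lower, where Psmd13 lost its call (edgeR adjusted p = 0.0639) and Psmg2 gained a call (0.0259). The ratios with the block differed by −0.68 and −0.55, at an exact p of 0.125, the smallest that 4 pairs allow. Depth limits Psmg3, at 1.29 to 3.06 CPM in EA, and Psma8 and Psmb11, which could not be tested.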
